A study of Mus musculus with 31 samples.

Results

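Matrix metallopeptidases are secreted or membrane-bound zinc proteases that cut the proteins of the extracellular matrix, and Timp1 encodes an inhibitor that binds and blocks several of them. The 10 genes described here were Mmp2, Mmp3, Mmp7, Mmp9, Mmp10, Mmp12, Mmp13, Mmp14, Mmp15 and Timp1, found by their gene name among the probes of a whole-genome mouse microarray, and they are 10 of the 19797 genes tested. They were represented by 14 probes, all of which passed the filter on low signal. No member probe was saturated or marked as an outlier on any of the 31 arrays.

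RNA came from the distal colon of BALB/c mice, with 1 array per animal. All mice, controls included, had been injected with azoxymethane (AOM), a carcinogen that acts on the colon, and had drunk dextran sodium sulphate (DSS), which injures the colonic epithelium, over days 1 to 5 of the exposure, or up to sampling in those taken after 2 days, so that no animal here was free of the cancer-inducing treatment. The CRC group received water as vehicle by gavage and the CRC + E171 group received E171, food-grade titanium dioxide, at 5 mg/kg body weight per day. Animals were taken after 2, 7, 14 and 21 days, 2 males and 2 females per group, except that CRC at 21 days held 3 arrays from 2 females and 1 male. The question put to the 10 genes was how far E171 moved their levels at each day on top of AOM and DSS.

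In the gut these enzymes are made by stromal, epithelial and immune cells, and several of them are known to rise in injured or inflamed mucosa and in colorectal tumours. They are made as inactive precursors, activated by other proteases and held in check by tissue inhibitors. A level of mRNA therefore says nothing direct of enzyme activity. In bulk tissue, fewer cells of a type and less RNA per cell cannot be told apart.

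Of the members, 5 lie in 1 cluster of metallopeptidase genes on chromosome 9, where RefSeq (GRCm38.p6) orders Mmp13, Mmp12, Mmp1b, Mmp3, Mmp1a, Mmp10, Mmp8, Mmp27, Mmp20 and Mmp7. The upstream sequence of these 5 is shown because it carries the AP-1 motif through which inflammatory signals are known to act on several metallopeptidase genes, and because Mmp3, Mmp10 and Mmp13 are the members whose levels spread most between arrays. Each line gives the last 100 bases before an annotated start on the plus strand of the C57BL/6J reference, not of the BALB/c animals, with the AP-1 motif TGANTCA and, on the gene's strand, the TATA box TATAAA in capitals.
Mmp13, chr9:7272414-7272513: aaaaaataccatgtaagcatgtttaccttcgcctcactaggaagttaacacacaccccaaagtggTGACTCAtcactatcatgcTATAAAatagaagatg
Mmp12 (second annotated start), chr9:7347274-7347373: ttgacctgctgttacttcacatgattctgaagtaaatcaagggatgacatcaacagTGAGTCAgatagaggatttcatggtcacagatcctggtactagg
Mmp3, chr9:7445722-7445821: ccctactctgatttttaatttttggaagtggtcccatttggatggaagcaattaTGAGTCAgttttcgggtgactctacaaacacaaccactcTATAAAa
Mmp10, chr9:7502242-7502341: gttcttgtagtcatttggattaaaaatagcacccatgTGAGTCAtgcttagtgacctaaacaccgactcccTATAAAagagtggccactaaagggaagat
Mmp7 (first annotated start), chr9:7691990-7692089: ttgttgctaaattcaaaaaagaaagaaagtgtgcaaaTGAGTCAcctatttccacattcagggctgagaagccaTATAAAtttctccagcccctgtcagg

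The AP-1 motif began 35 bases before the start of Mmp13, 44 before that of Mmp12, 46 before that of Mmp3 and 63 before those of Mmp7 and Mmp10. RefSeq promoter entries were found for 8 members, 10 entries in all, since Mmp7 and Mmp12 have 2 each. Within 250 bases upstream, 5 of the 10 entries held the AP-1 motif, against 6.73% of 32536 mouse promoter entries searched in the same way, and it reads the same on both strands. TATAAA was present in 4 of the 10 entries, 1 each of Mmp3, Mmp7, Mmp10 and Mmp13, against 7.55% of all entries. The GC box GGGCGG, searched on both strands, was present in 3 of the 10, those of Mmp14, Mmp15 and Timp1, against 33.0% of all entries. Such matches describe letters in a window and were not tested for use in this tissue, and Mmp2 and Mmp9 are named only.

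Summed markers of tissues other than the colonic mucosa lay more than 8-fold above the median array for squamous epithelium on 4 arrays, for pancreatic acinar cells on 4 and for skeletal muscle on 1, while the summed Hox genes of distal colon lay more than 8-fold below the median on 4. Colonocyte markers were lowest on CRC 7-day male 1, where their summed log2 level was 3.81, and next to it stood CRC 7-day male 2 at 6.21, against a median of 8.51 over the 31 arrays. In total 11 arrays stood apart in at least 1 marker list. Also, 1 of the 15 arrays labelled male, CRC 14-day male 2, had Xist at the level of the females. Arrays were scanned on 3 days and on 8 slides, and each slide held CRC arrays of 1 day and CRC + E171 arrays of another, so that the contrast of arms at a single day always crossed slides.

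Levels below are log2 signals relative to the 75th percentile of the same array, so that 0 means a signal at that percentile, and they are compared only within a gene. Over the 31 arrays, the measured level of Mmp10 spanned 11.60 on this log2 scale, that of Mmp3 10.09, that of Mmp13 8.67 and that of Timp1 6.37. The spans of Mmp7 (8.02) and Mmp9 (7.52) were also wide, and those of Mmp12 (4.23), Mmp14 (3.44), Mmp15 (2.80) and Mmp2 (2.76) were narrower. The lowest arrays of Mmp10 and Mmp9 were not well above background, and on theirs only 1 of 2 probes of Mmp7 and 1 of 3 of Mmp12 were, so the lower ends of these 4 spans are uncertain. For all members but Mmp7 and Mmp15, the group with the highest mean was CRC at 7 days, whereas Mmp15 had its lowest mean there. In the order of group means, 69 of the 70 steps between neighbouring groups were smaller than the larger SD of the 2 groups, the exception being Mmp9 between CRC at 14 days and CRC + E171 at 7 days.

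**Figure D1:**
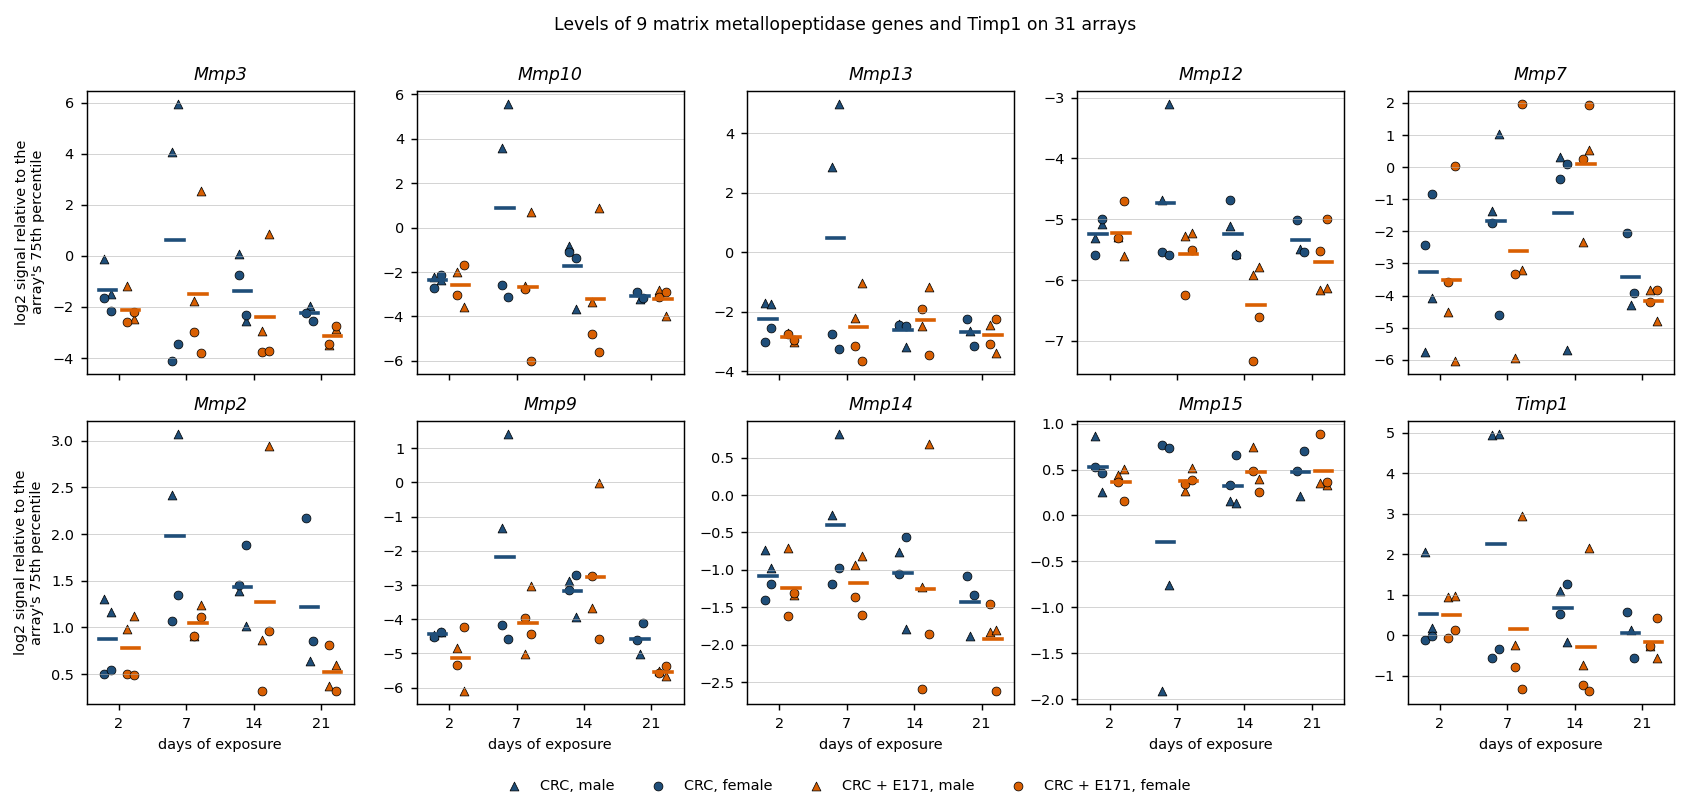
Level of each gene on every array (log2 signal relative to the array's 75th percentile) against days of exposure, with CRC and CRC + E171 side by side and the sexes by symbol. The 2 male CRC arrays at 7 days stand far above the 2 females for Mmp3, Mmp10, Mmp13, Mmp9 and Timp1, for example 4.94 and 4.98 against -0.56 and -0.34 for Timp1.

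After 7 days of exposure, 4 of the 10 genes were lower with E171 past the thresholds used here, a fold change of at least 1.5 with an unadjusted p below 0.05: Mmp10, Mmp13, Mmp9 and Mmp2. None was higher past them. Of all genes tested, 5.48% were lower and 6.93% higher at these thresholds. No member passed after Benjamini-Hochberg adjustment over all genes in limma, where the smallest adjusted p was 0.21, and no gene of the 19797 did so either, with 3327 at an unadjusted p below 0.05. The estimate was negative for 9 members, with a median log2 fold change of -1.45 against -0.01 over all genes. On all 10 genes the arrays of the arms overlapped at 7 days.

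Mmp3 and Mmp10 encode the stromelysins, which cut fibronectin, laminin and proteoglycans and can activate other metallopeptidases. In CRC at 7 days, Mmp10 stood at -2.57 and -3.12 in the 2 females and at 3.57 and 5.59 in the 2 males. In CRC + E171, the females had -2.75 and -6.01 and the males -2.61 and 0.69. The lowest of these, female 2 at -6.01, was not well above background, and 3 of the 4 E171 arrays were. The male CRC arrays were thus above every E171 array, while the female CRC arrays lay among them. For Mmp10 the measured log2 difference between the arms was -3.54 (SE 1.499; adjusted p = 0.246 in limma; two-sided exact permutation p = 0.257).

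For Mmp3, the CRC females had -4.12 and -3.46 and the CRC males 4.06 and 5.97. The E171 females had -2.995 and -3.79 and the E171 males -1.75 and 2.54. The pair of CRC males again stood above all others, with E171 male 2 next. The difference was -2.11 (SE 1.59), with an adjusted p of 0.516 in limma, and did not pass the thresholds.

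Mmp13 encodes the interstitial collagenase of rodents, which opens fibrillar collagens. Its levels in CRC at 7 days were -2.76 and -3.25 in females and 2.88 and 5.00 in males, and those in CRC + E171 were -3.17 and -3.66 in females and -2.21 and -1.04 in males. Both E171 males lay between the CRC females and the CRC males. This member had the smallest p of the 10 at that day, and its estimate was -2.99 (SE 1.10, 7.94-fold; adjusted p = 0.21 in limma; two-sided exact permutation p = 0.314).

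Mmp2 and Mmp9 encode the gelatinases, which degrade denatured collagen and the type IV collagen of basement membranes. Mmp9, abundant in neutrophil granules, was at -4.16 and -4.58 in CRC females, at -1.35 and 1.42 in CRC males and between -5.02 and -3.02 on the 4 E171 arrays. Its difference was -1.94 (SE 0.90, 3.83-fold; adjusted p = 0.281 in limma). Mmp2, a product mainly of stromal cells, was at 1.07 and 1.35 in CRC females, at 2.42 and 3.07 in CRC males and between 0.91 and 1.24 on the E171 arrays, and it differed by -0.93 (SE 0.44, 1.91-fold; adjusted p = 0.285 in limma). Among the members, Mmp2 came closest to separate groups at this day (two-sided exact permutation p = 0.0857, where the smallest that 4 arrays against 4 can give is 0.0286).

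Timp1 was at -0.56 and -0.34 in CRC females and at 4.94 and 4.98 in CRC males, and at -0.79, -1.33, -0.24 and 2.94 on the E171 arrays. The inhibitor therefore showed the same split as the stromelysins and the collagenase, with E171 male 2 again the highest of its arm. It differed by -2.11 (SE 1.05, adjusted p = 0.308 in limma) and missed the thresholds.

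The remaining secreted members were Mmp12, the elastase of macrophages, and Mmp7, matrilysin, which is made by epithelial cells. Mmp12 ranged from -5.59 to -3.10 in CRC and from -6.24 to -5.23 in CRC + E171, a difference of -0.84 (SE 0.42, adjusted p = 0.31 in limma). Mmp7 followed another course: it was at -1.75 and -4.60 in CRC females and at -1.36 and 1.03 in CRC males, and its highest level at this day, 1.98, was on E171 female 2. Its difference was -0.96 (SE 1.54, adjusted p = 0.799 in limma).

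Mmp14 and Mmp15 encode membrane-type enzymes, the former being the known activator of the Mmp2 precursor at the cell surface. Mmp14 ranged from -1.19 to 0.82 in CRC and from -1.60 to -0.81 in CRC + E171 and differed by -0.77 (SE 0.48, adjusted p = 0.42 in limma). Mmp15 ran the other way, with 0.77 and 0.74 in CRC females, -1.92 and -0.76 in CRC males and 0.27 to 0.51 on the E171 arrays. It was the only member with a positive estimate at 7 days, of 0.67 (SE 0.35, adjusted p = 0.332 in limma).

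**Figure D2:**
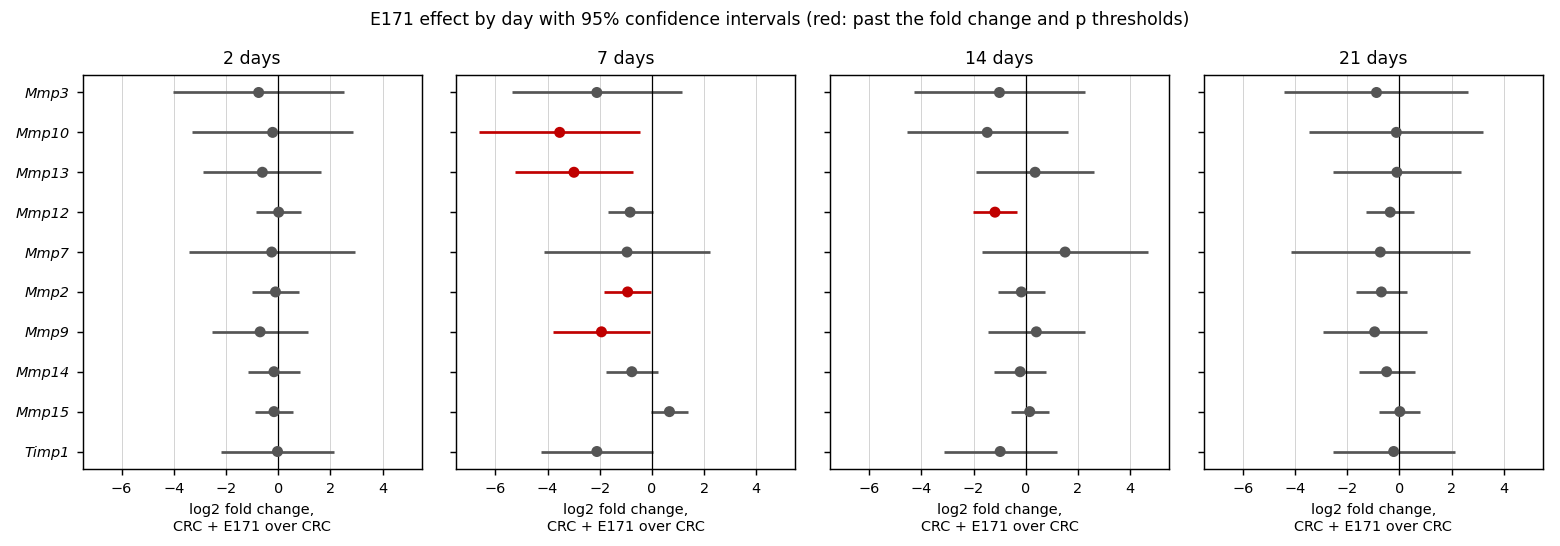
Log2 fold change of CRC + E171 over CRC for each gene at 2, 7, 14 and 21 days, with points for the limma estimate, bars for its 95% confidence interval and red for genes past the fold change and p thresholds. At 7 days 9 of 10 estimates are negative and Mmp10, Mmp13, Mmp9 and Mmp2 are red, whereas at 14 days only Mmp12 is, and at 2 and 21 days none is.

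The 7-day values rested on both male CRC arrays. Without CRC male 1 no member passed the thresholds, and the estimate for Mmp13 went from -2.99 to -2.18, with an adjusted p of 0.717 in limma. Without CRC male 2 none passed either, and Mmp13 was at -1.48 (adjusted p = 0.486) and Mmp9 at -0.74 (adjusted p = 0.691). Leaving out either CRC female raised the count from 4 to 8. Of the exposed arrays, leaving out female 1 gave 2 members, female 2 gave 1, male 1 gave 2 and male 2 gave 7. With the fit limited to the 8 arrays of that day, or with weights per array, no member passed, and in the weighted fit the estimates for Mmp13 and Mmp10 were -0.18 and -0.26. There the direction turned for Mmp3 (1.35), Timp1 (0.018) and Mmp15 (-0.20). That of Mmp7 turned without CRC + E171 male 1 (0.15) and without the 4 arrays high in acinar markers (0.36).

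**Figure D3:**
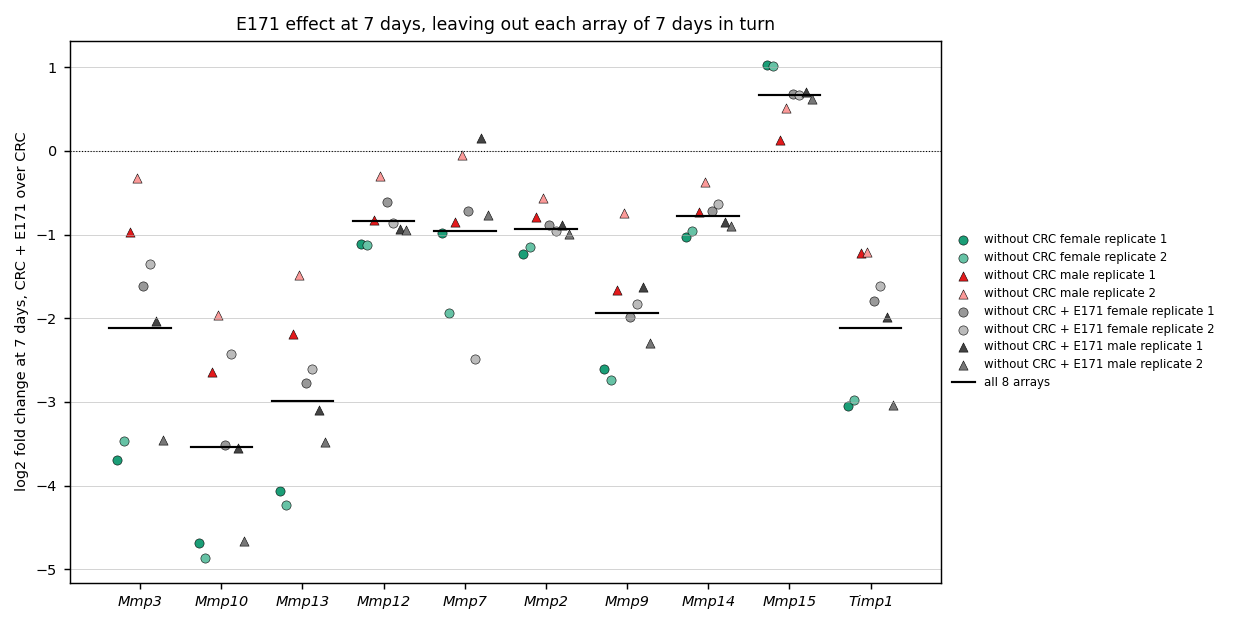
Log2 fold change at 7 days for each gene (vertical axis) with all 8 arrays (line) and after leaving out each array in turn (points, circles for females and triangles for males). Without a male CRC array the estimates move towards 0, to -1.96 for Mmp10 without male 2, and without a CRC female they move away from it, to -4.23 for Mmp13 without female 2.

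In the sexes taken separately, 2 arrays against 2 in a fit over all arrays, members passed the thresholds in males and none did in females. Unlike the test of the difference between the sexes, these separate contrasts were not among the planned comparisons. Their fit takes the gap between CRC males and CRC females out of the error, so the p-values are no separate support for the 7-day values. In males all 10 members passed the thresholds, 9 of them lower, against 12.7% of all genes lower and 14.5% higher. After adjustment over all genes, 7 members were lower in E171 males, Mmp13, Mmp10, Mmp3, Mmp9, Timp1, Mmp2 and Mmp12, and Mmp15 was higher, against 6.26% and 9.02% of all genes. Mmp13 fell by 5.57 on the log2 scale (SE 0.65, adjusted p = 6.39e-05 in limma), Mmp10 by 5.54 (adjusted p = 0.00869), Mmp3 by 4.62 (adjusted p = 0.0177) and Timp1 by 3.61. Mmp15 rose by 1.73 (adjusted p = 0.000992 in limma). In females no member passed, against 2.01% of all genes in either direction, and the smallest adjusted p of a member was 0.9998 in limma, with 485 genes at an unadjusted p below 0.05.

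The difference between the sexes was itself tested at 7 days. The E171 effect in males was more negative than in females past the thresholds for 7 members and more positive for Mmp15, with 7.5% and 10.5% of all genes doing so. The count of 8 was 2 without CRC male 2, 3 without CRC + E171 male 1, 5 without either CRC female or CRC + E171 female 1, 5 with array weights and 3 without the 4 arrays high in acinar markers. After adjustment over all genes 1 member stayed in each direction, against 0.869% and 2.84% of all genes. These were Mmp13, where the effect in males was lower by -5.16 (SE 0.91, adjusted p = 0.00605 in limma), and Mmp15, where it was higher by 2.11 (SE 0.41, adjusted p = 0.0109). Mmp7 had the largest such estimate, -6.91, but also the largest error (SE 2.67, adjusted p = 0.168). This test compared 2 males and 2 females per arm, and both male CRC arrays stood apart in a marker list, male 1 with high squamous and skeletal muscle and low colonocyte, goblet cell, B cell, acinar and distal Hox sums and male 2 with a high acinar sum, as had CRC female 1.

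**Figure D4:**
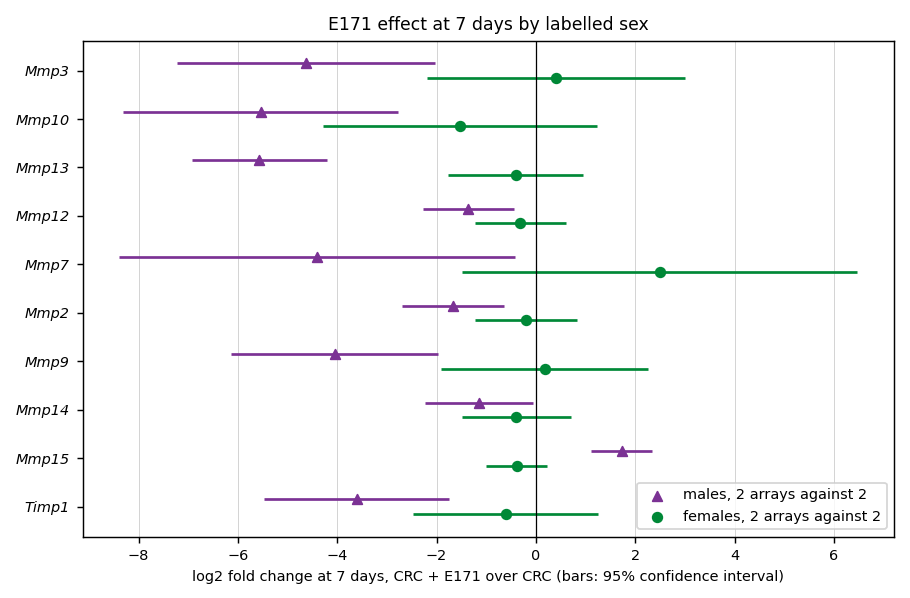
Log2 fold change at 7 days of CRC + E171 over CRC in males (triangles) and in females (circles), each 2 arrays against 2, with 95% confidence intervals. All male intervals lie on 1 side of 0, for Mmp13 around -5.57, while all female intervals cross 0.

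Marker lists moved with these genes at 7 days. Over all genes 5.48% were lower and 6.93% higher. Colonocyte markers were higher with E171 past the thresholds for 9 of 10 tested and goblet cell markers for 6 of 8. Neutrophil markers were lower for 4 of 10, macrophage markers for 5 of 10, endothelial markers for 4 of 8, fibroblast markers for 2 of 10, skeletal muscle markers for 7 of 10 and pancreatic acinar markers for 3 of 9. The summed neutrophil level ran from 5.84 to 8.50 in CRC and from 5.74 to 6.25 in CRC + E171, and the colonocyte level from 3.81 to 8.58 and from 8.30 to 8.77. The goblet cell level was 2.08 on CRC male 1 and 6.88 on CRC male 2, against 8.68 to 9.56 on the E171 arrays. The squamous level was 8.76 and the skeletal muscle level 9.16 on CRC male 1, and the acinar level was 9.40 on CRC male 2 and 8.49 on CRC female 1. The part of these tissues in the 7-day differences was not tested, and in males at 7 days E171 and the make-up of the 2 CRC arrays cannot be told apart.

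Over the 31 arrays, the levels of Mmp13 and Mmp15 ran with the colonocyte sum in opposite directions (Pearson's r = -0.80 and 0.88), but without the 2 male CRC arrays at 7 days the values were -0.30 and 0.18. Mmp2 ran with the endothelial sum (r = 0.88; 0.82 without those arrays), and Mmp12 with the macrophage sum (r = 0.71; 0.58 without them). Mmp7 had an r between -0.37, with smooth muscle, and 0.34, with endothelium, for the lists of cell types of the colon wall, and -0.67 with the distal Hox sum. In these descriptions the gene and the marker sum come from the same array, and no p is given.

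**Figure D5:**
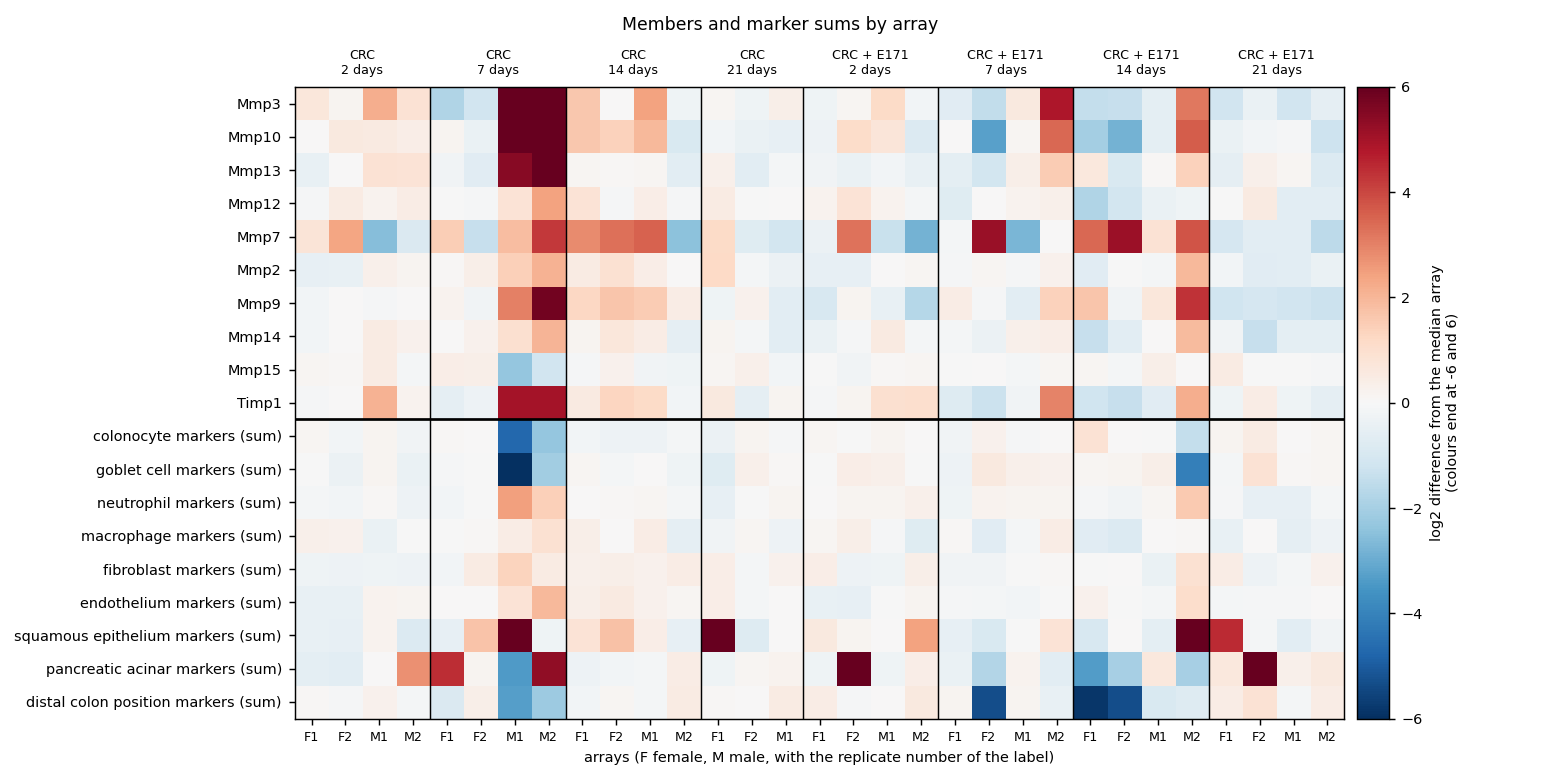
Log2 difference from the median array for the 10 genes (upper rows) and for summed markers (lower rows) on each of the 31 arrays, in columns by group. CRC 7-day male 1 and male 2 are red, above the median, for Mmp3, Mmp10, Mmp13 and Timp1 and blue, below it, for colonocyte markers (3.81 and 6.21 against a median of 8.51), and the 3 CRC + E171 females lowest in distal Hox genes are high in Mmp7.

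Scan day gave a check within a batch at each day. On scan day 1, which held male 1 and female 1 of both arms at 7 days, the difference was -3.18 for Mmp10, -2.75 for Mmp13, -1.73 for Mmp9 and -0.83 for Mmp2. With scan day as a block, chosen after seeing the data, 1 member passed at 7 days, Mmp13 with -2.83 (adjusted p = 0.427 in limma). Within slides, where arms could be compared only as a mean over 7 and 21 days or over 2 and 14 days, Mmp9 at -1.51 and Mmp2 at -0.81 passed in the former (both adjusted p = 0.508 in limma; 2.67% of all genes lower). This count of 2 was 0 without CRC 7-day male 1, CRC 7-day male 2 or CRC 21-day female 1 and with array weights, and it was 1 without CRC 21-day female 2 or male 1, CRC + E171 7-day female 2 or male 1, or CRC + E171 21-day male 2. It was 6 or 7 without a CRC 7-day female. No member passed in the latter, against 2.26% of all genes in either direction. Of all genes, 1858 and 1046 had an unadjusted p below 0.05 in these fits, and 0 an adjusted one.

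At the other days few members passed. After 2 days none passed, against 1.72% of all genes, and the estimate farthest from 0 was -0.75, for Mmp3, with the smallest adjusted p at 0.999 in limma and 541 genes at an unadjusted p below 0.05. After 21 days none passed, against 2.67% of all genes, and 2 did with the fit limited to the groups compared. The arms did not overlap for Mmp9 and Mmp3, but the share of all genes without overlap was not counted. Mmp9 was at -4.62, -4.10 and -5.01 in CRC and from -5.66 to -5.36 in CRC + E171, a difference of -0.95 (SE 0.97, adjusted p = 0.937 in limma; two-sided exact permutation p = 0.0286, which no regrouping of 3 and 4 arrays can undercut). Mmp3 was at -2.22, -2.56 and -1.97 in CRC and from -3.48 to -2.73 in CRC + E171, a difference of -0.88 (adjusted p = 0.966 in limma; two-sided exact permutation p = 0.0571).

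After 14 days Mmp12 was the member that passed, lower with E171, against 3.1% of all genes lower. It was at -4.68, -5.58, -5.11 and -5.57 in CRC and at -7.33, -6.61, -5.92 and -5.79 in CRC + E171, so that the arms did not overlap. On each of the 4 E171 arrays at least 1 of its 3 probes was not well above background, and on female 1 only 1 was, so no fold is given. The measured difference was -1.18 (SE 0.42; adjusted p = 0.532 in limma; two-sided exact permutation p = 0.0286). On scan day 2 alone, with 2 arrays per arm, it was -1.31. Without CRC + E171 female 1, the lowest array, Mmp12 no longer passed, and with normexp background correction its difference was -0.13 (adjusted p = 0.886 in limma). The 2 lowest arrays, CRC + E171 female 1 and female 2, were also those of the group with low distal Hox sums (-0.11 and 0.41, against 4.81 and 4.98 on the males), and 4 of 7 distal Hox genes were lower with E171 at 14 days. Without the 4 arrays low in these genes, a fit chosen after seeing the data, Mmp12 differed by -0.62 (adjusted p = 0.999 in limma) and did not pass. The part of sampling position in this difference was not tested.

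The 3 probes of Mmp12 did not behave alike. In mm9 coordinates they start at 7352935, 7354810 and 7358559 on chromosome 9, within Mmp12 by the array's annotation, and the 60 bases of the second are split over 516. Over 31 arrays the second and the last ran together (r = 0.91), whereas the first ran with neither (r = 0.25 with each). At 14 days the difference was -0.12 for the first probe and -1.57 for the last (SE 0.43, adjusted p = 0.473 in limma over probes). The last was at -3.67, -4.20, -4.09 and -4.33 in CRC and at -6.52, -5.50, -5.55 and -4.99 in CRC + E171. The second was not well above background on any E171 array and was so on 3 of 4 CRC arrays, so no fold is given for it. Both probes of Mmp7 (r = 0.99) and both of Mmp9 (r = 0.99) ran together.

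Across days, 5 members passed in the CRC arm between 2 and 7 days. Mmp10 (log2 fold change 3.22), Mmp13 (2.73), Mmp9 (2.27) and Mmp2 (1.10) were higher at 7 than at 2 days past the thresholds and Mmp15 was lower (-0.82), against 7.21% and 6.2% of all genes, with adjusted p from 0.219 to 0.273 in limma. At 2 days the 4 CRC arrays ran from -2.71 to -2.15 for Mmp10, from -4.53 to -4.38 for Mmp9, from -3.02 to -1.71 for Mmp13 and from 0.51 to 1.30 for Mmp2. They were farther apart for Mmp3 (-2.14 to -0.14), Timp1 (-0.11 to 2.06) and Mmp7 (-5.76 to -0.84). From 7 to 14 days Mmp13 was lower by -3.10 (adjusted p = 0.487 in limma), against 3.17% of all genes lower. No member passed from 14 to 21 days, against 2.35% of all genes. The same 7-day arrays enter these values and the E171 effect at 7 days, and without either male CRC array no member passed from 2 to 7 or from 7 to 14 days. The count from 2 to 7 days was 2 without CRC 2-day female 1 and 3 without CRC 2-day female 2 or male 1. From 7 to 14 days it was 5 without either CRC 7-day female.

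In the CRC + E171 arm no member passed from 2 to 7 days or from 7 to 14 days, against 3.27% and 2.65% of all genes. From 14 to 21 days Mmp7 and Mmp9 were lower, against 6.17% of all genes lower. This count of 2 was 1 without the 4 arrays high in squamous markers, and 4 with the authors' log2 values or without CRC + E171 14-day female 1. Mmp7 was at 0.25, 1.92, -2.34 and 0.54 at 14 days and from -4.78 to -3.82 at 21 days, and the days did not overlap. It differed by -4.26 (SE 1.54, 19.1-fold; adjusted p = 0.171 in limma; two-sided exact permutation p = 0.0286). Mmp9 was at -2.73, -4.59, -3.68 and -0.03 at 14 days and from -5.66 to -5.36 at 21 days, a difference of -2.77 (SE 0.90; adjusted p = 0.14 in limma). The 2 probes of Mmp7 lie at 7697641 and 7699476 on chromosome 9 (mm9). A test of whether the E171 effect varied between the 4 days found no member at an unadjusted p below 0.05, against 6.52% of all genes, and the smallest adjusted p was 0.732 in limma.

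Mmp7 stood apart from the other members over the arrays. The 3 CRC + E171 females lowest in distal Hox genes, 1 at 7 days and 2 at 14 days, had summed Hox levels of 0.43, -0.11 and 0.41 against a median of 5.74. On those arrays Mmp7 was at 1.98, 0.25 and 1.92 against a median of -3.21, and Mmp10 was at -6.01, -4.79 and -5.59 against a median of -2.75. The other array low in these genes, CRC 7-day male 1 (2.43), had Mmp10 far above its median and the probes of Mmp7 at -1.83 and -0.89. Mmp7 also reached 0.31 in CRC at 14 days, where the lowest Hox sum was 5.56. Mmp10 had an r of 0.08 with the Hox sum over the 31 arrays, and of 0.52 without the 2 male CRC arrays at 7 days. On the other side, Mmp7 was at -5.68 on CRC 14-day male 2, against 0.09, 0.31 and -0.37 on the other arrays of that group. The part of sampling position in the levels of Mmp7 was not tested.

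CRC + E171 14-day male 2 also carried high levels, with 2.94 for Mmp2, 0.84 for Mmp3, 0.87 for Mmp10, 0.68 for Mmp14, -0.03 for Mmp9 and 2.17 for Timp1. Each of these was the highest of its group. On that array the squamous sum was 8.47 and the goblet cell sum 4.89.

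Pairs of members were most alike for Mmp3 and Timp1 (Pearson's r = 0.94 over 31 arrays), Mmp3 and Mmp10 (0.93), Mmp10 and Timp1 (0.92) and Mmp3 and Mmp13 (0.89). Taken as deviations from the group means, the same pairs had 0.95, 0.93, 0.90 and 0.91. Without the 2 male CRC arrays at 7 days they had 0.88, 0.82, 0.83 and 0.71. For Mmp15, Pearson's r with the 9 others ran from -0.75 with Mmp13 to -0.25 with Mmp7, but Spearman's rho ran from -0.33 with Mmp12 to 0.05 with Mmp14. Without those 2 arrays its Pearson's r ran from -0.17 with Mmp7 to 0.19 with Mmp14. Mmp7 had no r above 0.58, its value with Mmp9. Beside the members, the gene most like Mmp13 was Lcn2 (r = 0.94), which encodes an epithelial and neutrophil protein, and that most like Mmp12 was C1qc (0.81), a complement chain made by macrophages. Mmp2 was nearest to Fam20a (0.94) and Cdh5 (0.93), the latter the cadherin of endothelial junctions, and Mmp15 to Arhgef16 (0.94) and Slc44a4 (0.94). Timp1 was nearest to Grem1 (0.92) and Lbp (0.92), Mmp3 to Lrg1 (0.92) and Tgfbr2 (0.90), and Mmp10 to Sirpb1b (0.94) and Lrg1 (0.93). Mmp9 was nearest to Inhbb (0.91) and Grrp1 (0.89), Mmp14 to Elk3 (0.88) and Adamts7 (0.88), Mmp7 to Tmem178 (0.83) and Chn2 (0.83), and Mmp12 after C1qc to Kcns1 (0.80). Without the 2 male CRC arrays at 7 days, the r of Mmp13 with Lcn2 was 0.64 and with Ifitm6, its second nearest, 0.50 instead of 0.94, and that of Mmp15 was 0.58 with Arhgef16 and 0.51 with Slc44a4, whereas that of Mmp7 with Chn2 was 0.86.

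The other genes of the pathway were read at 7 days from 7 lists, and no gene of them passed after adjustment over all genes, the smallest adjusted p being 0.197 in limma. Of 10 other metallopeptidase genes tested, 3 were lower past the thresholds and none higher, with a median of -0.58 against -0.01 over all genes, of which 5.48% were lower. Mmp8, the collagenase of neutrophils, was at -4.31 and -3.39 in CRC females, at 0.60 and 2.50 in CRC males and from -4.97 to -4.12 on the E171 arrays, a difference of -3.33 (SE 0.92). The pair of CRC males again stood alone. Mmp19 differed by -1.15 and Mmp23 by -0.69.

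Among 9 other inhibitors, 3 were lower and 1 higher, where over all genes 5.48% were lower and 6.93% higher, the shares against which the counts of each list at 7 days are to be read. Those described here are Serpine2 (-2.23), which restrains the plasminogen activators, Timp2 (-0.71), which restrains the metallopeptidases, and Spint2 (1.16), which inhibits serine proteases of the epithelium. Of 14 genes of the plasminogen system and the proprotein convertases, which supply activators, Plaur (-1.39), Plau (-0.87) and the mast cell tryptase Tpsb2 (-0.89) were lower and the epithelial protease St14 (1.10) was higher. Of 14 ADAM and ADAMTS proteases 7 were lower, and the 4 with the smallest p were Adamts2 (-1.02), Adamts1 (-2.01), Adam9 (-0.59) and Adamts9 (-1.39).

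Of 15 matrix substrates and partners, 5 were lower, against 5.48% of all genes, and the 4 with the smallest p were Fn1 (-1.28), Col1a1 (-1.07), Lcn2 (-3.54) and Thbs1 (-1.17). Lcn2 was at -3.78 and -3.92 in CRC females and at 4.77 and 5.18 in CRC males, and from -3.65 to -1.51 on the E171 arrays. Of 14 cytokines known to induce metallopeptidase genes, 4 were lower, Il6 (-4.58), Il11 (-3.28), Osm (-2.40) and Il17a (-2.15), with a list median of -1.19. Il6 was at -5.91 and -7.48 in CRC females, at 2.10 and 2.70 in CRC males and from -8.37 to -4.28 on the E171 arrays. At such low levels a probe of Mmp12 was not well above background, at -6.44 on CRC female 2 and -8.27 on CRC + E171 female 2. The size of the Il6 difference is therefore uncertain. Of 16 transcription factors known at metallopeptidase promoters, Fosl1 (-2.49), a subunit of AP-1, and Cebpb (-1.87) were lower, and the list median was -0.15. Fos (0.28) and Jun (0.46), other AP-1 subunits named here after their values were seen, did not pass. After 2 days no gene of the 7 lists passed, after 14 days at most 2 of a list were lower, against 3.1% of all genes, and after 21 days only genes of the plasminogen and convertase list passed, 1 lower and 1 higher of 14, against 2.67% of all genes in either direction.

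In males at 7 days, genes with an adjusted p below 0.05 in limma numbered 8 of the 14 ADAM and ADAMTS proteases, 6 of the 14 cytokines, 5 of the 9 inhibitors, 5 of the 15 matrix genes, 3 of the 14 genes of the plasminogen system and convertases, 2 of the 10 other metallopeptidases and 2 of the 16 transcription factors, against 3024 of all 19797 genes. In females none of the 7 lists held such a gene, nor did the series as a whole.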

How the data were processed

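Total RNA of 31 distal colons was labelled with Cy3 and hybridised to one-colour Agilent mouse arrays. Per the file headers, the deposited scanner files hold intensity values per spot from Feature Extraction 10.7.3.1, already background-corrected by the authors' software, and the authors also deposited a matrix of normalised log2 values, used here as an alternative. All 31 matrix columns fitted their own array best (Spearman's rho at least 0.994). Its medians ran from 9.43 to 9.67, so genes were not centred, and its normalisation between arrays is not given in the sources used here.

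Each processed signal was taken as log2 and the array's 75th percentile of it subtracted. Control spots and spots marked as outliers were left out, spots of a probe were averaged, a probe needed 1 group in which it was well above background on no less than 60% of arrays with a mean of 4 or higher on the log2 scale, and probes of a gene were averaged, which left 34344 probes and 19797 genes, of which 56 had a missing value. Between 67.4% and 78.9% of probes were well above background per array. The number of arrays limits the precision.

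Groups came from the sample labels. limma 3.58.1 in R 4.3.3 was fitted over the 8 groups, with sex added for the contrasts by sex and slide for those within slides, and exact permutation tests were run on single genes. The p-values measure the spread between arrays of different animals, as labelled. The members and all lists were chosen with earlier results of these data known. Named were all members, the 2 genes most correlated with each, and, of each pathway list, every gene past the thresholds at 7 days or the 4 with the smallest p, except 1 gene that is not reported here. Promoters are those of RefSeq (GRCm38.p6), and probe positions are those of the array annotation (mm9). On simulated data for the 7-day contrast, fitted over 19741 genes, 68% of 50 genes changed by 1 on the log2 scale were recovered and 94% of 50 changed by 3, with 3.41% of unchanged genes called. The simulated noise was independent between genes and had the same spread in every group. The SD of Mmp3 was 5.15 in CRC at 7 days and 0.86 at 2 days, so these rates do not carry over to the members. Alternatives covered background correction, normalisation, filter, probe choice, blocks, weights, thresholds and left-out arrays.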

Additional observations from a re-analysis of the deposited data

Results flagged for a closer look

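Within groups of 4 arrays, 4 of 70 combinations of a gene and a group held an array far from the other 3, by Dixon's ratio of its gap to the range of the group, and chance gives such a call in about 1 in 20. In CRC at 14 days, male 2 was far below the others for Mmp7 (-5.68; ratio 0.886) and for Mmp13 (ratio 0.940). This array is also the one labelled male with Xist at the level of the females. In CRC at 2 days, male 1 was far above the others for Timp1 (2.06; ratio 0.868). In CRC + E171 at 21 days, female 1 was far above the others for Mmp15 (0.89; ratio 0.943).

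The E171 effect at 7 days differed between the sexes in a test of the difference itself for 2 members. For Mmp13 the effect in males minus that in females was -5.16 on the log2 scale (adjusted p = 0.00605 in limma), and for Mmp15 it was 2.11 (adjusted p = 0.0109). Of all genes, 0.869% were lower and 2.84% higher at an adjusted p below 0.05. Both male CRC arrays stood apart in a marker list, and their make-up and E171 cannot be told apart in males.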

How the results depend on the processing

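Counts are of members past the thresholds. No filter, a stricter filter and slide as a random block changed no count by more than 1.5 times, and at 2 days and in CRC + E171 from 2 to 7 days every count was 0. With normexp correction the count was 0 at 14 days and 1 over 7 and 21 days within slides. With quantile normalisation it was 1 over 7 and 21 days and 1 over 2 and 14 days within slides. With the authors' log2 values it was 1 for CRC + E171 from 7 to 14 days, 4 from 14 to 21 days and 1 over 2 and 14 days within slides. With the brightest probe per gene it was 1 for CRC + E171 from 7 to 14 days and 1 over 2 and 14 days within slides. Fitted on only the groups compared, it was 0 at 7 days, 2 at 21 days, and 1, 0 and 1 for the successive steps of CRC. With weights per array it was 0 at 7 days, 3 at 14 days, 0 for CRC from 2 to 7 days, 4 for CRC from 14 to 21 days, 2 for CRC + E171 from 7 to 14 days, 1 between days, 0 and 1 within slides and 5 between sexes. A log2 fold change of at least 1.5 gave 0 at 14 days, 3 for CRC from 2 to 7 days and 1 over 7 and 21 days within slides.

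Alternatives chosen after seeing the data were scan day as a block, which gave 1 at 7 days and 1 for CRC + E171 from 7 to 14 days, and fits without arrays that stood apart. Without the 4 arrays high in squamous markers, the count was 1 at 7 days, 3 at 14 days, 2 and 0 for CRC from 2 to 7 and from 7 to 14 days, 1 and 1 for the last steps of CRC + E171 and 0 over 7 and 21 days within slides. Without the 4 high in acinar markers, it was 2 at 7 days, 1 and 2 for the same steps of CRC, 1 for CRC + E171 from 7 to 14 days, 1 and 1 within slides, 3 between sexes and 6 in males. Without the 4 low in distal Hox genes, it was 0 at 7 days, 0 at 14 days, 1 and 0 for those steps of CRC and 0 over 7 and 21 days within slides.

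Leaving out 1 array at a time gave 0 to 0 members at 2 and 21 days, 0 to 8 at 7 days, 0 to 2 at 14 days, and 0 to 7, 0 to 5 and 0 to 1 for the steps of CRC. For CRC + E171 the ranges were 0 to 0, 0 to 2 and 2 to 4, within slides 0 to 7 and 0 to 1, between days 0 to 1, between sexes 2 to 8, in males 7 to 10 and in females 0 to 1. Without CRC 7-day male 1 or male 2 the count was 0 at 7 days, in both CRC steps that use 7 days and over 7 and 21 days within slides, and without male 2 it was 2 between sexes. Of 3450 values of single members under the alternatives, 3255 kept their sign, 192 that passed the thresholds neither with nor without the alternative changed it, and 3 others changed it under array weights, where the cause was not tested. Mmp13 (-0.079) and Mmp15 (0.12) in CRC from 2 to 7 days had passed without weights, and Mmp3 in CRC from 7 to 14 days (2.15) passed only with them.

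With the replicate block the count was 5 at 7 days, 1 at 14 days, 5 and 1 for CRC from 2 to 7 and from 7 to 14 days, 2 for CRC + E171 from 14 to 21 days, 3 over 7 and 21 days within slides, 7 between sexes and 10 in males, and 0 in the other comparisons. No count moved by more than 1.5 times. Arrays with the same number and sex did not all deviate together: the correlation of their deviations from group means ran from -0.18 to 0.48 over 15 pairs (median 0.16), with 8 over 0.1, so the numbers were not taken as a pairing.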
